A study of Mus musculus with 60 samples.

Results

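The genes described here are 32 enzymes and regulators of cholesterol and fatty acid synthesis in mouse intrahepatic cholangiocyte organoids, which are hollow structures of bile duct cells grown from ductal fragments of the liver. They were chosen by name, with earlier results of these data known, and matched to the count tables by Ensembl identifier. The sterol branch held 22 genes and the fatty acid branch 10, and all 32 were present among the 23440, 23068 and 28773 genes of the 3 tables and passed the filter on low counts in each. Expression was measured by RNA-seq of the 3′ ends of transcripts in 3 experiments, and all organoids came from livers of C57BL/6N mice labelled 3 to 4 months old. In the culture experiment, 3 cultures in Matrigel domes were compared with 3 suspension cultures, which were kept in 10% Matrigel on a shaker at 80 rpm. These cultures came from pools of 2, 4 and 3 mice. In the passage experiment, bulk cultures of Sets 1, 3 and 4, each from 1 mouse, were sequenced at passage 4 and again at passage 11, with 2 technical replicates per culture that were summed. In the third experiment, single organoids were picked from suspension cultures of 4 mice, 8 organoids from Set 1, 10 from Set 2, 5 from Set 3 and 12 from Set 4 among the 35 that the study kept of 42. Set 1 was picked at passage 11, Sets 2 and 3 at passage 3 and Set 4 at passage 4, so that mouse and passage cannot be told apart between Set 1 and the other sets, and Sets 2 and 3 differ in mouse at the same passage.

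Cholesterol is built from acetyl-CoA through the mevalonate pathway, which ends in farnesyl diphosphate, and then through squalene and lanosterol. Fatty acids are built from the same acetyl-CoA by carboxylation, chain synthesis, elongation and desaturation. Both branches are transcribed under sterol regulatory element-binding proteins. Srebf2 encodes the form best known for sterol genes and Srebf1 the form best known for fatty acid genes. When sterols are plentiful, the Insig proteins hold these factors in the endoplasmic reticulum, and Insig1 is itself a target gene. Bile duct cells line the ducts that carry cholesterol and bile acids out of the liver.

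In known sterol genes, binding of these factors is helped by neighbouring NF-Y and Sp1 sites. RefSeq promoters of 250 bases before to 50 bases after the start were given for 26 of the 32 genes (GRCm38.p6). Both strands were searched for the letters TCACNCCAC, a strict form of the sterol regulatory element, CCAAT for NF-Y, GGGCGG for Sp1 and CACGTG for the E-box, each on its own, so that a base could count for more than 1 motif. CCAAT lay in the promoters of 23 of 26 genes, 17 of 18 in the sterol branch and 6 of 8 in the fatty acid branch, against 41.1% of 27025 genes. GGGCGG lay in 21 of 26, 17 of 18 and 4 of 8, against 38.2% of all genes. CACGTG lay in 5 of 26 against 8.09%, and TCACNCCAC in 1 of 26, Hmgcs1, against 1.44%. A match is a description of letters, and no match says only that these letters are not in the window searched. The stretches printed here belong to the 7 genes that were higher both in domes and at passage 11, so that the motif they share can be seen in its surroundings. Capitals mark the motif, which is TCACCCCAC in the first line and CCAAT, or ATTGG where it lies on the other strand, in the lines after it.
Hmgcs1, chr13:119690189-119690247, plus strand: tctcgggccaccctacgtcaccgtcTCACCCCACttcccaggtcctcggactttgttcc
Hmgcs1, chr13:119690281-119690335, plus strand: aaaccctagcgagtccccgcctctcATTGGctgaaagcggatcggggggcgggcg
Mvk, chr5:114444230-114444268, plus strand: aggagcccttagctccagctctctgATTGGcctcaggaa
Pmvk, chr3:89454380-89454434, plus strand: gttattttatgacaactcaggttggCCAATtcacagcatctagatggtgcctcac
Mvd, chr8:122443423-122443474, minus strand: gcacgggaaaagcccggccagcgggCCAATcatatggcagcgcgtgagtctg
Nsdhl, chrX:72918476-72918520, plus strand: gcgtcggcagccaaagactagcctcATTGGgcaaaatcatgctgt
Ebp, chrX:8193538-8193592, minus strand: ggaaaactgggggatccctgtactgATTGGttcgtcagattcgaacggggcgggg
Insig1, chr5:28071171-28071225, plus strand: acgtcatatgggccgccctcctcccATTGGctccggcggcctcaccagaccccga
These stretches lie upstream of the RefSeq start and outside the annotated span of their own gene. Overlap with exons of other genes was not checked.

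Libraries held 1776490 to 14761853 counts in the culture experiment, 1486347 to 5532630 per bulk culture after summing, and 1059002 to 11175868 per single organoid with a median of 2554162. Levels are given as CPM, counts scaled to a common library size after normalisation by trimmed mean of M-values. All 9 ductal markers were detected in every experiment, with summed levels of 5505 CPM or more in each library, whereas endothelial markers summed to at most 2.62 CPM. In these pooled RNA samples, fewer cells of a type and less RNA per cell cannot be told apart. Replicates of a group differed by more than sampling noise, at 4.65–33.8 times the chi-square that counting alone gives between cultures and 2.21–76.7 times between organoids of a set.

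Culture in domes was compared with suspension to ask how the form of culture changed expression. Most sterol synthesis genes were higher in domes, whereas most fatty acid genes did not pass the test. Of the 32 genes, 14 were differentially expressed with higher levels in domes, against 15% of all 12699 genes tested, and 1 was lower, against 14.7% (edgeR quasi-likelihood test, adj. P-value below 0.05). Of the 14, 13 were among the 22 sterol genes. The median log2 fold-change, dome minus suspension, was 0.65 in the sterol branch, 0.25 in the fatty acid branch and −0.04 over all genes tested. Summed over the 18 sterol enzymes, the level was 2463, 2719 and 2919 CPM in domes and 1869, 1843 and 1974 CPM in suspension, without overlap. All 3 domes were above all 3 suspension cultures for 16 of the 32 genes, against 21.6% of all genes tested. The 9 fatty acid enzymes summed to 524–795 CPM in domes and 494–623 CPM in suspension, and these ranges overlapped.

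In the mevalonate part, 4 of 7 enzymes were higher in domes. Mvd (ENSMUSG00000006517, chromosome 8, 122433601–122443422, GRCm38), the decarboxylase that makes isopentenyl diphosphate, stood at 57.4, 88.0 and 95.1 CPM in domes and 33.5, 31.9 and 39.2 CPM in suspension. Its log2 fold-change was 1.18 ± 0.23 (SE, n = 3 and 3, edgeR adj. P-value 0.00563), and every dome lay above every suspension culture. Mvk, mevalonate kinase, measured 59.4, 46.2 and 93.5 CPM in domes against 38.7, 33.6 and 32.2 CPM, a log2 fold-change of 0.93 ± 0.26 (edgeR adj. P-value 0.0221). The third dome was the highest for both genes. Hmgcs1, which joins acetoacetyl-CoA and acetyl-CoA, measured 167, 192 and 211 CPM in domes and 131, 114 and 116 CPM in suspension (log2 fold-change 0.66 ± 0.18, edgeR adj. P-value 0.0232), again without overlap. Pmvk, the next kinase of the chain, was higher by 0.90 on the log2 scale. The 3 that did not pass were Acat2, the thiolase at the head of the pathway, at 0.46, Idi1, the isomerase of isopentenyl diphosphate, at −0.72, and Fdps, farnesyl diphosphate synthase, at −0.15. For Acat2 the third dome measured 177 CPM and the other two 70.4 and 72.6 CPM, within 66.9–86.1 CPM in suspension.

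Of the 11 enzymes from squalene to cholesterol, 6 were higher in domes. Their log2 fold-changes were 0.87 for Fdft1, squalene synthase, 0.85 for Tm7sf2, a sterol reductase, 0.67 for Ebp, the sterol isomerase, 0.64 for Cyp51, the lanosterol demethylase, 0.59 for Sc5d, a sterol desaturase, and 0.53 for Nsdhl, a sterol dehydrogenase. Tm7sf2 was even across replicates, with 55.1, 58.7 and 61.0 CPM in domes and 34.7, 30.3 and 32.03 CPM in suspension. Sqle, squalene epoxidase and a rate-limiting enzyme of the branch, measured 158, 145 and 226 CPM in domes and 158, 179 and 172 CPM in suspension (log2 fold-change 0.05 ± 0.21, edgeR adj. P-value 0.874). Both groups of Sqle overlapped, and only the third dome was above all suspension cultures. The other 4 that did not pass were Lss at 0.75, Msmo1 at 0.44, Hsd17b7 at 0.06 and Dhcr7 at −0.18, as was the sterol carrier Stard4 at 0.23.

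All 3 sterol regulators were higher in domes. Srebf2 measured 56.7, 74.8 and 86.9 CPM against 34.1, 38.5 and 42.1 CPM (log2 fold-change 0.91 ± 0.21, edgeR adj. P-value 0.0113). Insig1 measured 97.2, 194 and 150 CPM against 84.0, 62.0 and 66.0 CPM (1.04 ± 0.26, edgeR adj. P-value 0.0154). Insig2 measured 33.4, 77.7 and 31.3 CPM against 22.5, 24.4 and 23.4 CPM (0.98 ± 0.33, edgeR adj. P-value 0.0461). None of the 3 overlapped between groups, but for Insig2 the second dome alone was far above the rest, and without it the gene was no longer called.

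The fatty acid branch moved less uniformly. Acss2 (ENSMUSG00000027605, chromosome 2, 155517948–155585724, GRCm38), which makes acetyl-CoA from acetate, measured 12.6, 24.9 and 15.9 CPM in domes and 5.26, 8.04 and 8.47 CPM in suspension, a log2 fold-change of 1.20 ± 0.32 (edgeR adj. P-value 0.0192). Elovl6 (ENSMUSG00000041220, chromosome 3, 129532355–129638495, GRCm38), which elongates saturated fatty acids, went the other way, with 28.8, 10.3 and 22.5 CPM in domes and 53.9, 40.2 and 48.0 CPM in suspension (−1.12 ± 0.30, edgeR adj. P-value 0.0209). Neither gene overlapped between groups. Fasn, fatty acid synthase, measured 31.5, 26.4 and 58.8 CPM in domes and 46.1, 42.3 and 58.5 CPM in suspension (−0.35 ± 0.29, edgeR adj. P-value 0.387). The desaturases overlapped as well, Scd1 with 43.3, 35.9 and 82.5 CPM against 72.2, 25.5 and 34.3 CPM and Scd2 with 221, 199 and 381 CPM against 181, 183 and 247 CPM. Srebf1 measured 20.1, 20.5 and 20.9 CPM in domes and 16.4, 15.1 and 16.2 CPM in suspension, without overlap but without passing the test (0.36 ± 0.20, edgeR adj. P-value 0.19). The other fatty acid enzymes, Acly, Acaca, Elovl5 and Me1, had log2 fold-changes between −0.61 and 0.28 and were not called.

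**Figure D1:**
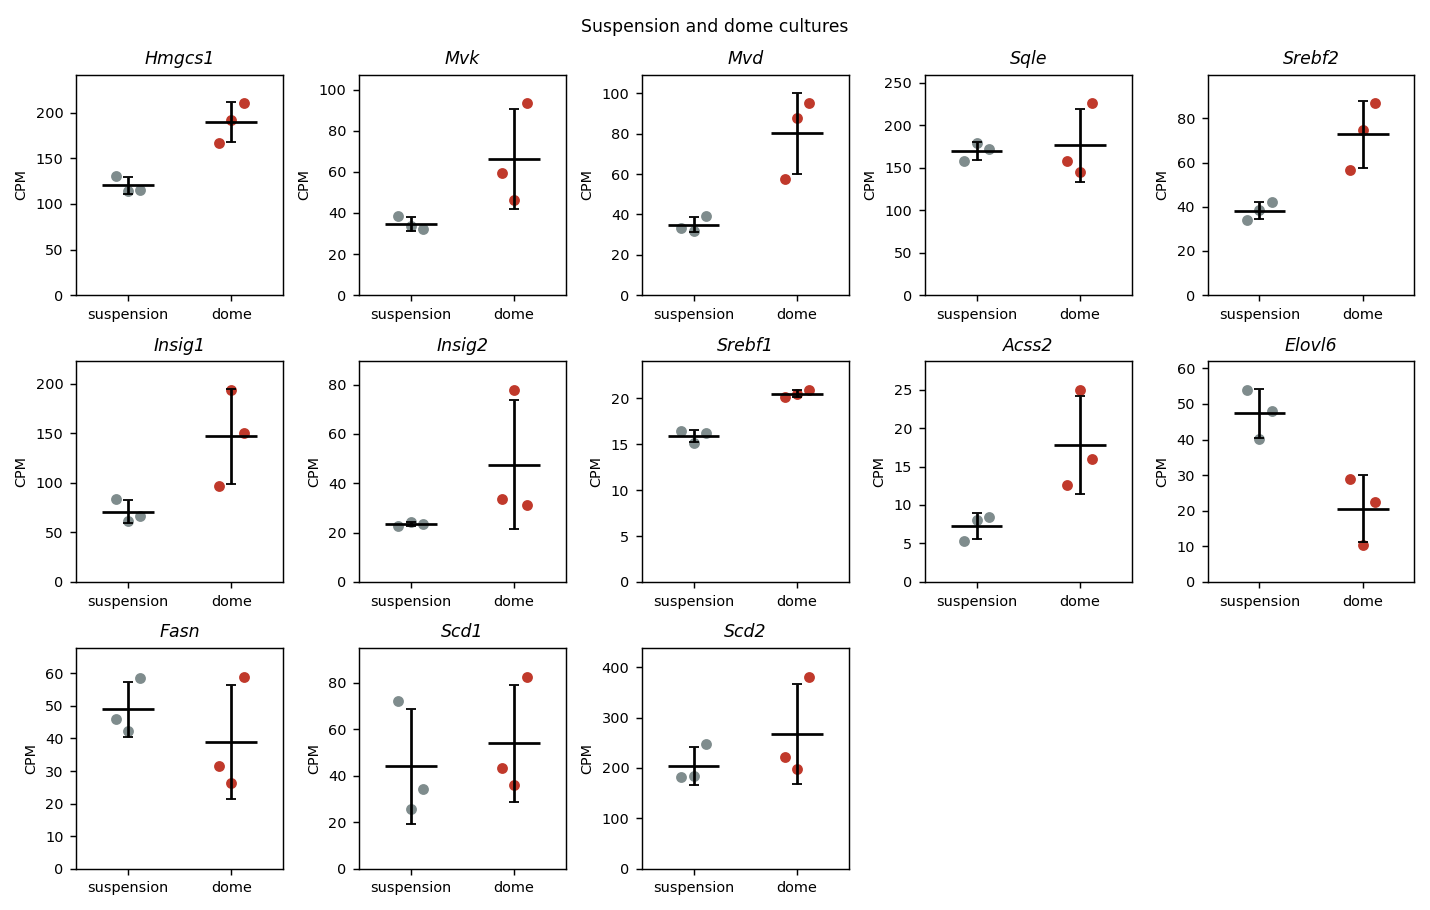
Normalised levels (CPM, linear axis from 0) of 13 genes in 3 suspension and 3 dome cultures; points are cultures, and the bar and whiskers are the mean and SD. Mvd lies at 57.4–95.1 CPM in domes and 31.9–39.2 CPM in suspension, whereas for Sqle, Fasn, Scd1 and Scd2 the groups overlap.

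The number of calls rested on the suspension cultures. Without suspension replicate 1, 2 or 3, respectively 3, 4 and 5 of the 32 genes were called, while the calls over all genes went from 29.8% to 14.6%, 16.7% and 15.1%. Mvd and Tm7sf2 were called under all 14 alternatives. With same-numbered cultures as a block, Nsdhl was no longer called (edgeR adj. P-value 0.0523). Other values moved with the groups. Proliferation markers, 9 of 9 called lower, summed to 125–399 CPM in domes and 822–1003 CPM in suspension, macrophage markers, 5 of 6 in the table, to 152–249 and 578–736 CPM, and mitochondrial genes made up 1.64–2.02% and 3.72–4.02% of counts. Of the 3 macrophage markers tested, Cd14 was called lower in domes and Cd68 higher, with log2 fold-changes of −1.60 and 3.06, and Csf1r was not called. Their part in these differences was not tested.

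Passage 11 was compared with passage 4 in bulk cultures of the same mice to ask what prolonged culture changed. The sterol branch was higher in the libraries labelled passage 11, and the mevalonate part most completely. Every direction here is that of the passage labels, no value used here checks them, and exchanged labels would turn every sign of the comparison. The study's text and its figure legend give opposite directions for proliferation genes in this experiment. Of the 32 genes, 13 were higher, against 10.1% of 13738 genes tested, and 0 were lower, against 10.1%, at an edgeR adj. P-value below 0.05. At an unadjusted P-value below 0.05, 4 were lower (Srebf2, Insig2, Me1 and Srebf1), and limma-voom and DESeq2 also called 0 lower. The sterol branch held 12 of the 13. Every enzyme of the mevalonate part was called, 7 of 7, but only 3 of the 11 enzymes after it. All 3 cultures at passage 11 were above all 3 at passage 4 for 21 of the 32 genes, against 19.2% of all genes tested. The median log2 fold-change was 0.73 in the sterol branch, 0.20 in the fatty acid branch and −0.05 over all genes tested. Summed over the 18 sterol enzymes, the level in Sets 1, 3 and 4 was 686, 1071 and 1059 CPM at passage 4 and 1755, 1713 and 1689 CPM at passage 11, whereas the 9 fatty acid enzymes summed to 378, 467 and 514 CPM and 430, 540 and 467 CPM.

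Acat2 (ENSMUSG00000023832, chromosome 17, 12942890–12960747, GRCm38) had the largest change of the branch. It measured 41.0, 65.8 and 58.9 CPM at passage 4 in Sets 1, 3 and 4, and 197, 197 and 192 CPM at passage 11, a log2 fold-change of 1.82 ± 0.18 (n = 3 and 3, edgeR adj. P-value 0.000375). The 3 later cultures were nearly equal and far above the 3 early ones. Mvk went from 22.03, 33.4 and 33.4 CPM to 77.2, 71.4 and 75.7 CPM (1.325 ± 0.17, edgeR adj. P-value 0.00129). Idi1 was low throughout, at 0.778, 2.11 and 2.46 CPM and then 6.06, 5.17 and 3.82 CPM, from 3 counts in the poorest culture (1.47 ± 0.40, edgeR adj. P-value 0.0285). Hmgcs1 measured 44.6, 59.3 and 63.3 CPM and then 77.9, 118 and 92.2 CPM (0.78 ± 0.19, edgeR adj. P-value 0.0171). None of these genes overlapped between passages. Fdps, Mvd and Pmvk were higher by 0.97, 0.79 and 0.74 on the log2 scale.

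After squalene, the called enzymes were Ebp, Nsdhl and Sqle. Ebp measured 77.0, 116 and 115 CPM at passage 4 and 241, 239 and 308 CPM at passage 11 (1.35 ± 0.19, edgeR adj. P-value 0.00164). Sqle measured 55.7, 93.9 and 82.5 CPM and then 109, 134 and 134 CPM (0.69 ± 0.19, edgeR adj. P-value 0.0297), and Nsdhl was higher by 0.93. The remaining 8 had positive log2 fold-changes between 0.10, for Msmo1, and 0.73, for Lss, without passing. Stard4, a cytosolic sterol carrier, was higher by 1.20 ± 0.18, at 18.4, 28.2 and 21.1 CPM against 51.4, 50.5 and 54.7 CPM.

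The regulators did not move together. Insig1 measured 44.3, 64.5 and 54.7 CPM at passage 4 and 90.7, 107 and 90.9 CPM at passage 11 (0.82 ± 0.16, edgeR adj. P-value 0.00782). Srebf2 measured 49.0, 54.5 and 53.0 CPM and then 34.3, 43.9 and 42.6 CPM, below in every set but not called (−0.38 ± 0.15, edgeR adj. P-value 0.0953). Insig2 measured 31.6, 21.7 and 21.1 CPM and then 16.6, 18.1 and 11.4 CPM (−0.63 ± 0.23, edgeR adj. P-value 0.0744). Insig2 was called lower under 2 of the 16 alternatives, at an edgeR adj. P-value of 0.0318 with no filter on low counts. With the mouse as a block, Insig2 was called lower (edgeR adj. P-value 0.0454), and Lss and Elovl6 were called higher (0.0455 and 0.00979), for 16 calls in all. Leaving out 1 culture lost at most 3 of the 13 calls, those of Idi1, Sqle and Hmgcs1, and with no filter on low counts 20 genes were called.

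In the fatty acid branch, Fasn alone was called at passage 11. It measured 36.0, 47.4 and 50.3 CPM at passage 4 and 72.7, 94.0 and 66.8 CPM at passage 11 (0.81 ± 0.18, edgeR adj. P-value 0.0119), without overlap. Scd1 measured 25.9, 30.5 and 30.3 CPM and then 43.5, 37.2 and 36.3 CPM (0.44 ± 0.15, edgeR adj. P-value 0.0663). Scd2 measured 150, 222 and 259 CPM and then 146, 210 and 165 CPM, and the passages overlapped. Srebf1 measured 31.6, 46.6 and 39.9 CPM and then 27.6, 28.6 and 24.8 CPM, below in every set (−0.54 ± 0.17, edgeR adj. P-value 0.053). It was called lower under 3 of the 16 alternatives, those with no filter on low counts, with a stricter filter and without the passage 4 culture of Set 1, where the edgeR adj. P-value was lowest at 0.0247. Me1, malic enzyme, had a log2 fold-change of −0.50 and Elovl6 of 0.76, both uncalled, and Me1 was called lower under 2 alternatives, with no filter on low counts and without the passage 11 culture of Set 4 (lowest edgeR adj. P-value 0.0336).

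**Figure D2:**
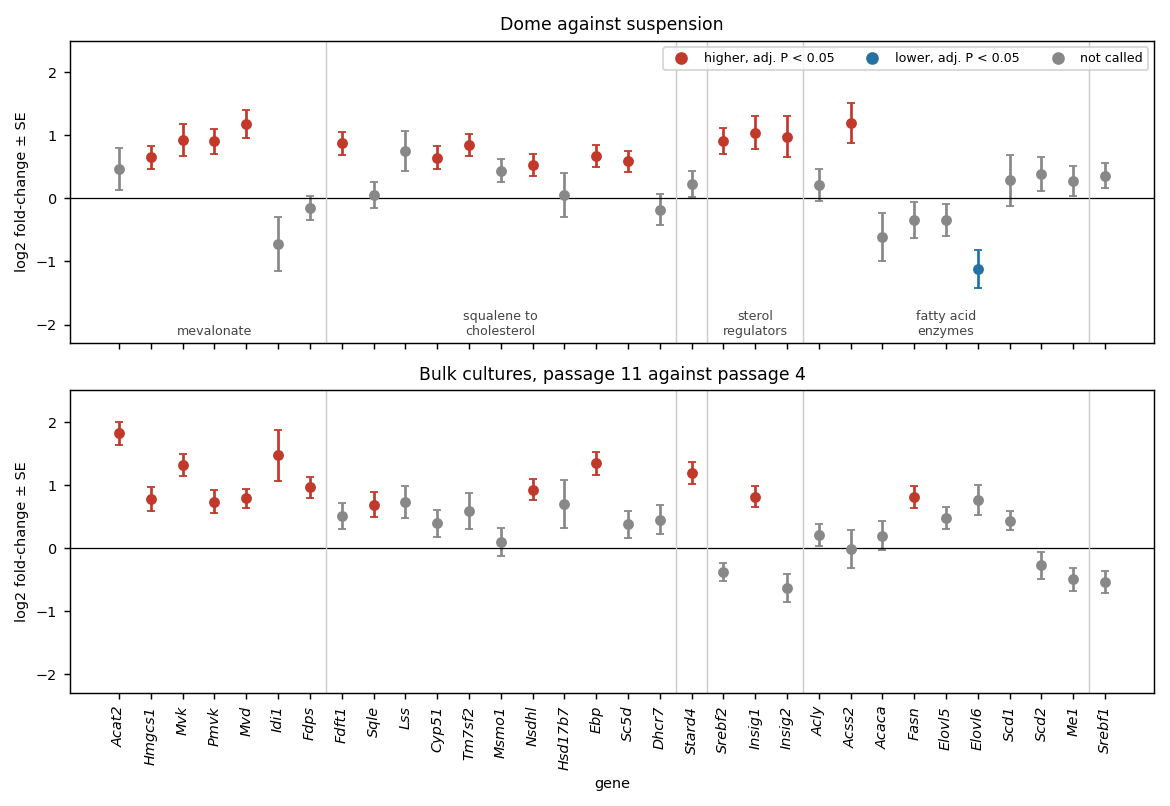
Log2 fold-change (points, with SE as bars) of the 32 genes, ordered by role, for dome minus suspension (n = 3 and 3) and for passage 11 minus passage 4 (n = 3 and 3). Red points were called higher, blue lower and grey not called by edgeR at an adj. P-value below 0.05; all 7 mevalonate enzymes are red in the lower panel and 4 in the upper.

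Within sets, the same mouse was followed over both passages. In Set 1 the median change of the sterol branch was 1.23 on the log2 scale, in Set 3 0.52 and in Set 4 0.50. The fatty acid branch changed by 0.22, 0.30 and 0.05. Of the sterol genes, 18 of 22 were higher at passage 11 in all 3 sets, against 26.9% of all 13738 genes tested, and 2, Srebf2 and Insig2, were lower in all 3, against 28%. Of the fatty acid genes, 5 of 10 were higher in every set (Acly, Fasn, Elovl5, Elovl6, Scd1) and 3 were lower (Scd2, Me1, Srebf1). Set 1 had the lowest passage 4 level for all 18 sterol enzymes, such as 11.7 CPM for Lss against 24.6 and 21.5 CPM. Proliferation markers moved in the opposite direction to the culture comparison, with 306–365 CPM summed at passage 4 and 751–1185 CPM at passage 11 and 8 of 9 called higher. In the single organoids described further on, those of Set 1, labelled passage 11, had 0 of these markers called higher than in another set, 4 called lower than in Set 2 and 7 lower than in Set 4, so that the sign differed between the experiments. For the bulk cultures, the study's text places proliferation and cell cycle terms among genes lower at passage 11, opposite to the markers here. Its figure legend assigns the same panel to terms higher at passage 11. Macrophage markers, 4 of 6 in the table, summed to 864–1191 and 403–577 CPM, with 1 of the 2 tested called lower. Of the 6, 3 had no counts at passage 4 and 2 had none at passage 11. Hepatocyte markers, 6 of 10 in the table, summed to 266–706 and 682–1159 CPM, ranges that overlapped, and of the 3 tested only Apoa1 was called higher, while Alb had a log2 fold-change of −1.79. Their part in the changes was not tested.

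**Figure D3:**
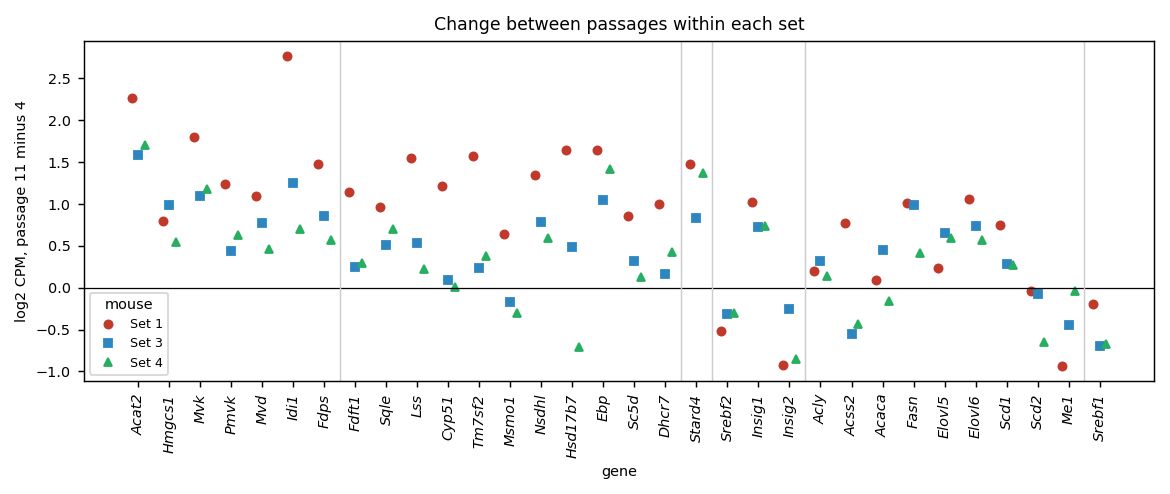
Change of each gene between passages (log2 CPM, passage 11 minus passage 4) within Set 1 (circles), Set 3 (squares) and Set 4 (triangles), genes ordered by role with grey lines between roles. Most sterol enzymes lie above 0 in all 3 sets, with Set 1 highest for most, and Srebf2 and Insig2 lie below 0 in all 3.

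The 2 comparisons did not call the same list, although 7 genes were higher in both, which were Hmgcs1, Mvk, Pmvk, Mvd, Nsdhl, Ebp and Insig1, against 1.97% of the 12215 genes tested in both. A further 7, Fdft1, Cyp51, Tm7sf2, Sc5d, Srebf2, Insig2 and Acss2, were called in domes only, and 6, Acat2, Idi1, Fdps, Sqle, Stard4 and Fasn, at passage 11 only. No difference between the 2 comparisons was tested. Acaca, Scd1, Scd2 and Srebf1 were called in no comparison of the 3 experiments.

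Fold-changes also moved with transcript length. Across all genes, the log2 fold-change in domes had a Spearman correlation of −0.30 with exon length, and across the 32 genes of −0.38. For passage these were −0.25 and −0.45. Between sets of single organoids, the values over all genes ran from −0.19 (Set 2 minus Set 3) to 0.36 (Set 3 minus Set 4). Across the 32 genes these 2 comparisons had −0.16 and 0.23. Genes share libraries, so these values describe them and carry no test. After removal of the trend with exon length, an alternative chosen after seeing the data, 15 genes were called in the culture comparison, with Insig2 and Nsdhl lost and Msmo1 and Lss gained. In the passage comparison 17 were called, all 13 among them.

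In single organoids, the 4 sets were compared pairwise to see how cultures of different mice and passages differed. Set 1 differed from every other set in 4 of the 32 genes, against 3.92% of the 13927 genes tested, in comparisons that share the organoids of Set 1, and further genes differed between single pairs of sets. Against Set 2, 6 of 32 genes were higher in Set 1 and 2 lower (7.08% and 7.19% of the genes tested). Against Set 3 the counts were 3 and 2 (4.3% and 5.13%), and against Set 4 9 and 2 (12.4% and 7.6%). Between Sets 2 and 3, 1 gene was higher in Set 2 and 2 lower (2.05% and 1.88%), between Sets 2 and 4 2 and 2 (7.02% and 5.35%), and between Sets 3 and 4 6 and 1 (7.89% and 3.67%). All adj. P-values here are from edgeR over all genes and all 6 comparisons. They measure the spread between organoids of a set, and each set came from its own mouse. Spread between mice, or between cultures of a mouse, is not covered. The summed level of the 18 sterol enzymes had means of 1584 ± 110, 1620 ± 214, 1636 ± 135 and 1506 ± 139 CPM (SD, n = 8, 10, 5 and 12) in Sets 1 to 4.

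Stard4, Insig2 and Fasn were higher and Acly was lower in Set 1 than in each other set. Insig2 ranged from 37.0 to 66.3 CPM in Set 1 with a median of 51.0 CPM, from 20.4 to 38.1 CPM in Set 2 with a median of 25.6 CPM and from 17.2 to 29.7 CPM in Set 4 with a median of 23.1 CPM. The 5 organoids of Set 3 measured 22.3, 28.5, 33.1, 27.6 and 34.8 CPM. Every organoid of Set 1 was above every organoid of Sets 3 and 4, and Set 2 overlapped slightly. The log2 fold-changes against Sets 2, 3 and 4 were 0.90 ± 0.14, 0.78 ± 0.18 and 1.13 ± 0.14 (edgeR adj. P-values 2.61e-05, 0.00229 and 1.5e-07). In the bulk cultures Insig2 had a negative log2 fold-change at passage 11 (−0.63, not called). Proliferation markers, higher in bulk libraries labelled passage 11, summed to 370–1368 CPM in the single organoids of Set 1 and 705–1744 CPM in the others.

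Stard4 had a median of 97.5 CPM in Set 1 (74.6–136), 69.1 in Set 2 (54.6–91.5) and 64.9 in Set 4 (50.6–83.1), and 60.4, 72.6, 57.5, 74.6 and 76.9 CPM in Set 3. Its log2 fold-changes were 0.52, 0.56 and 0.61. Fasn had a median of 67.4 CPM in Set 1 (61.5–105), 49.4 in Set 2 (33.1–61.5) and 52.2 in Set 4 (48.1–69.4), and 43.7, 56.7, 27.7, 54.8 and 42.7 CPM in Set 3, for log2 fold-changes of 0.59, 0.70 and 0.42. Both genes were also higher at passage 11 in bulk, where Set 1 came from the same mouse. All 7 mevalonate enzymes were called higher at passage 11 in bulk too. In single organoids, 0, 0 and 2 of the 7 were called higher in Set 1 than in Sets 2, 3 and 4. Against Set 2, 1 of them, Fdps, was called lower. Acat2 had log2 fold-changes of −0.11, −0.61 and −0.48, not called. Acly, ATP citrate lyase, which supplies acetyl-CoA, had a median of 27.01 CPM in Set 1 (23.5–36.4), 38.3 in Set 2 (24.9–64.2) and 42.2 in Set 4 (29.2–50.6), and 43.7, 39.0, 34.7, 60.1 and 37.9 CPM in Set 3 (−0.51, −0.59 and −0.53). Of Stard4, Insig2, Fasn and Acly, only Fasn and Insig2 had a comparison without overlap. Set 1 lay wholly above Sets 2, 3 and 4 for 1, 2 and 1 of the 32 genes. Over the 13927 genes tested, this held for 78, 223 and 106. For Fasn the lowest organoid of Set 1 measured 61.52 CPM and the highest of Set 2 61.47 CPM. Stard4 and Insig2 were called in all 3 comparisons under all 15 alternatives. Acly was called against Sets 2, 3 and 4 under 12, 9 and 13 of them and not under the replicate block, and Fasn under 13, 15 and 10. With all 42 organoids, the calls fell from 8 to 5 against Set 2 and from 11 to 7 against Set 4, and between Sets 3 and 4 from 7 to 4, as they also did without organoid 3 of Set 3.

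Further genes differed between other sets. Fdps had a median of 243 CPM in Set 2 (131–480.5), and of 124, 147 and 145 CPM in Sets 1, 3 and 4, and was called higher in Set 2 than in each of them, with a log2 fold-change of −0.74 for Set 1 minus Set 2 and of 0.84 for Set 2 against both Set 3 and Set 4. Idi1 measured 50.0, 74.4, 63.4, 30.4 and 79.0 CPM in Set 3, with a median of 49.3 CPM in Set 1 (20.4–60.04), 27.7 in Set 2 (7.79–47.3) and 29.1 in Set 4 (9.20–34.9). Set 3 against Set 4 differed by 1.20 ± 0.27 (edgeR adj. P-value 0.00203). Lss and Hmgcs1 were higher in Set 3 than in Set 4 without overlap, by 0.89 and 0.69. Set 3 lay wholly above Set 4 for these 2 of the 32 genes and for 216 of the 13927 genes tested. Hmgcs1 measured 205, 205, 228, 163 and 211 CPM in Set 3 against 83.8–149 CPM in Set 4. Tm7sf2 was lower in Set 2 than in Set 4, with medians of 18.5 and 39.7 CPM and a log2 fold-change of −0.96.

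**Figure D4:**
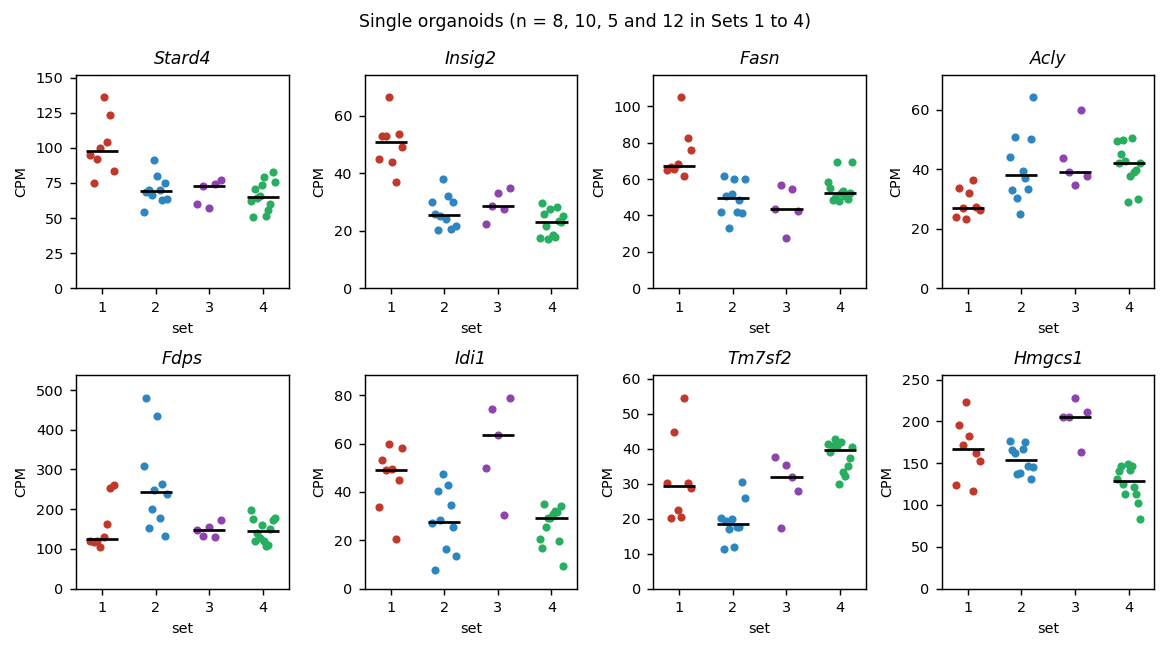
Levels (CPM, axis from 0) of 8 genes in single organoids of Sets 1 to 4; each point is an organoid and the bar is the set median. By median, Set 1 is highest for Stard4, Insig2 and Fasn and lowest for Acly, Set 2 is highest for Fdps, and Set 3 for Idi1 and Hmgcs1.

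Sqle, Srebf2, Insig1, Srebf1, Scd1 and Scd2 were called in no set comparison. Sqle medians were 155, 171, 164 and 150 CPM in Sets 1 to 4, and those of Srebf2 38.4, 41.99, 44.6 and 44.2 CPM. Insig1 varied more, from 37.2 CPM in an organoid of Set 2 to 163 CPM in an organoid of Set 3. Within sets, the SD of log2 CPM had a median of 0.33 in the sterol branch, 0.36 in the fatty acid branch and 0.50 over all genes tested, with 21 of 22 and 9 of 10 genes below the median of all genes. Low genes carry more counting noise. The biological coefficient of variation, which sets that noise aside, had a median of 0.23 in the sterol branch and of 0.256 in the 6488 genes at a log2 CPM of 4 or more. It was lowest for Lss (0.169) and highest for Idi1 (0.352).

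The sterol enzymes did not vary as 1 group from organoid to organoid. After set means were subtracted, the 153 pairs of the 18 enzymes had a median Pearson r of 0.01 over 35 organoids, against 0.0002 for pairs of all genes. The pairs were spread, with 39 above 0.5 (25.5%) and 21 below −0.5 (13.7%), against 7.10% and 6.60% of all pairs. Mvk, Mvd, Fdft1, Nsdhl and Ebp correlated with each other, at 0.83 for Mvd and Fdft1 (Spearman 0.83), 0.83 for Mvk and Mvd (0.78) and 0.82 for Mvd and Nsdhl (0.81). Idi1 had negative r with them, at −0.75 with Fdft1 and −0.77 with Dhcr7 (Spearman −0.79 and −0.75). Without the 2 organoids farthest from the median, Mvd and Fdft1 kept 0.79, and Idi1 and Dhcr7 had −0.83. Fdps and Sqle correlated at 0.78, but at 0.58 by rank and 0.69 without 2 organoids. The 45 pairs of the fatty acid branch had a median of 0.17, and the 220 pairs across branches −0.03.

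These points share libraries and their depth. The main axis of variation within sets, a first principal component with 20.5% of the variance, had r = 0.82 with the proliferation gene Mki67 and −0.40 with the log2 library total. Of the 32 genes, 7 had r above 0.5 with it and 10 below −0.5, in all 17, against 46.3% of all genes. Idi1 had r = 0.85 with it, Fdft1 −0.91, Mvd −0.86 and Ebp −0.85. The mean of the sterol enzymes had r = −0.55 with Mki67 and 0.20 with the log2 total. Exon length went with the component too. Across 13916 genes, r with the component had a Spearman correlation of 0.42 with exon length, and across the 32 genes of 0.28. The part of proliferation, depth or length in the correlations was not tested.

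**Figure D5:**
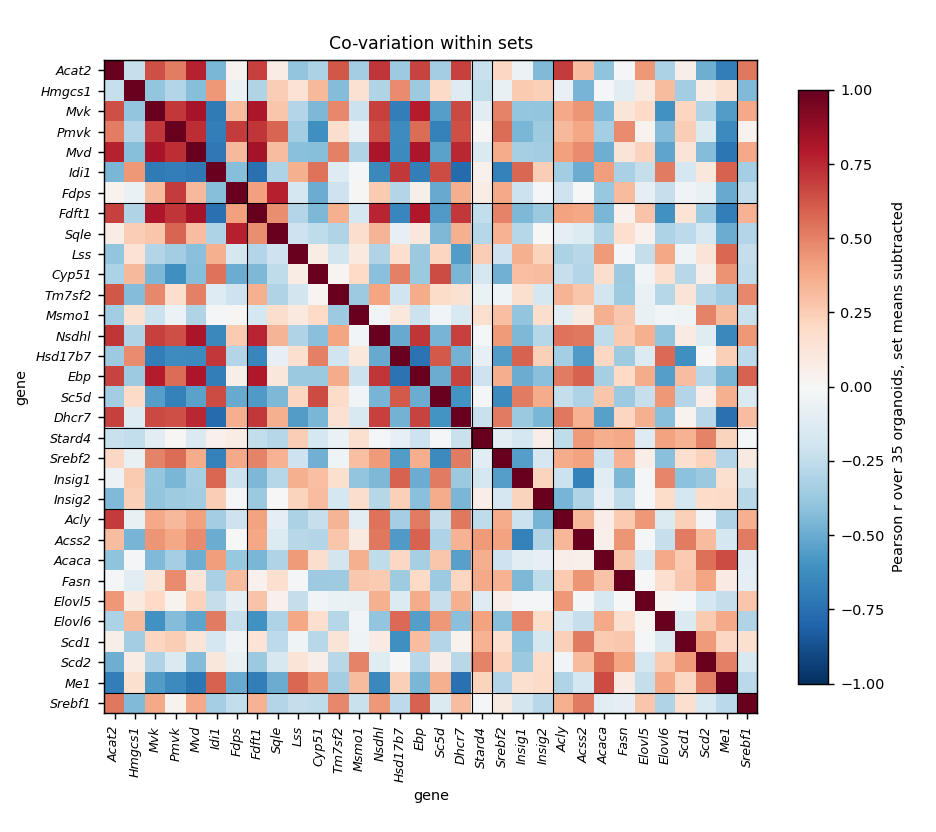
Pearson r between the 32 genes over 35 single organoids after subtraction of set means (red positive, blue negative, lines between roles). Mvk, Mvd, Fdft1, Nsdhl and Ebp form red cells with r up to 0.83, and Idi1 is blue with them, down to −0.75 with Fdft1.

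Of 25 further genes of lipid synthesis, 23 passed the filter. In domes 3 of the 23 were higher, against 15% of all genes, Aacs, which activates acetoacetate, by 1.00, Slc25a1, the mitochondrial citrate carrier, by 0.75, and Pgd of the pentose phosphate pathway by 0.69, and 1 was lower, against 14.7%, Mlxipl, a carbohydrate-responsive factor, with a log2 fold-change of −1.53. At passage 11, 5 were higher and 1 lower, each against 10.1% of all genes. The higher ones were led by Fads2 at 1.04, Aacs at 0.95 and Tmem97 at 0.81, and the lower one was Ggps1, at −0.89. Of 14 genes of sterol export and trafficking, 8 were tested. In domes 2 of the 8 were higher, against 15% of all genes, Npc2 by 1.33 and Lpcat3 by 1.06, and 0 were lower, against 14.7%. At passage 11, 0 of the 8 were higher and 1 was lower, each against 10.1% of all genes. The lower one was Npc1, which moves cholesterol out of lysosomes, with a log2 fold-change of −2.68 (11.1, 7.87 and 7.57 CPM at passage 4 and 0.898, 1.79 and 1.27 CPM at passage 11, edgeR adj. P-value 0.00169). In single organoids, 7.08%, 4.3% and 12.4% of all genes tested were called higher in Set 1 than in Sets 2, 3 and 4. The shares called lower were 7.19%, 5.13% and 7.6%. Of the 8 genes of sterol export and trafficking, 1, 2 and 3 were called higher and 0 lower, in that order. Of the 23 genes of lipid synthesis, 1, 1 and 2 were called higher and 2, 1 and 3 lower. Those higher included Idh1, which supplies NADPH, against Sets 2 and 4 and Gpam, which starts triglyceride synthesis, against Set 4. Those lower included Acacb, the mitochondrial acetyl-CoA carboxylase, against Sets 2 and 3, and Tmem97, Fads2 and Aacs against Set 4.

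Counts of a few of the genes may include reads of others. For Fdps, 334 of 451 stretches of 50 bases at its 3′ end (74.1%) also lie in other annotated genes. Fdft1 shares 774 exon bases with Ctsb on the opposite strand. Ctsb was higher in domes by 0.97 and correlated with Fdft1 at 0.83 within sets, but had a log2 fold-change of −0.34 at passage 11, where Fdft1 was at 0.51, neither called. Tm7sf2 shares 532 exon bases with Vps51 on the same strand, Cyp51 166 with Akap9 on the opposite strand, and Acss2 395 with its neighbours. Vps51 had log2 fold-changes of 0.78 in domes and 0.43 at passage 11, neither called, and correlated with Tm7sf2 at 0.502 within sets. Akap9 was called lower in both comparisons, at −1.55 and −1.20, and correlated with Cyp51 at 0.32. The sources used here do not say whether counting used the strand. Strand bears on the overlaps of Fdft1, Cyp51 and Acss2, which lie on the opposite strand. It does not settle the overlap of Tm7sf2 or the shared stretches of Fdps. Values of all these genes are uncertain to that extent.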

How the data were processed

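The authors deposited gene counts, made per their methods from 3′-end libraries with unique molecular identifiers by zUMIs, STAR, SAMtools 1.9 and Rsubread on GRCm38. Per the methods, zUMIs also down-sampled libraries where their sizes varied; the sources used here do not say whether the deposited counts are molecules or reads, or come from before that step. The 32 genes and all gene lists were chosen with earlier results of these data known. Genes were filtered with filterByExpr (minimum count 3), normalised by TMM and tested in edgeR 4.0.16 under R 4.3.3 by quasi-likelihood F-tests, with Benjamini-Hochberg adjustment over all genes (for single organoids over all 6 comparisons) at 0.05. Log2 CPM used an offset of 0.5 counts. The study used limma-voom, run here (limma 3.58.1) as an alternative beside DESeq2 1.42.0, RLE size factors, other filters, thinning (seed 1), a replicate block, leaving out replicates, all 42 organoids and removal of the exon-length trend, the last added after seeing the data. Among single organoids, only those of Set 3 were left out, 1 at a time. Same-numbered dome and suspension cultures deviated together (r = 0.133, 0.153 and 0.188), and bulk cultures of a set share a mouse. The main tests used neither pairing. Both entered only the alternative with a replicate block. In the single organoids numbers are names only. Values in each sample were given for Hmgcs1, Sqle, Srebf2, Insig1, Srebf1, Fasn, Scd1, Scd2 and the 4 called genes of each branch with the largest change, and for single organoids for genes called in several comparisons, chosen after their values were seen. Scripts were tested on simulated data. Adipocyte and mesenchymal marker lists summed to at most 10.1 CPM in the culture experiment. P-values measure the spread between these samples, which for single organoids are organoids of a set and not mice. Values of 3 genes among the further genes of lipid synthesis are not reported here.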

Additional observations from a re-analysis of the deposited data

Results flagged for a closer look

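A highest or lowest organoid lay far from the rest of its set for 5 of 96 gene and set groups tested by Dixon's ratio, where chance gives about 4.8. Acat2 and Dhcr7 were highest in organoid 6 of Set 1, at 147.7 CPM (next 86.2) and 30.5 CPM (next 20.1). Acaca was highest in organoid 5 of Set 1, at 21.7 CPM (next 11.6). Cyp51 was lowest in organoid 3 of Set 3, at 182.0 CPM (next 204.7), and Scd1 in organoid 7 of Set 2, at 24.6 CPM (next 40.7).

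For 3 genes the change between passages went opposite ways in 2 sets, with both technical replicates on the same side in each. The sets differed on the log2 scale by 0.81 for Msmo1 (Set 1 against Set 3), by 2.35 and 1.19 for Hsd17b7 (Sets 1 and 3 against Set 4) and by 1.21 for Acss2 (Set 1 against Set 4). These differences were not tested, since each set had 1 culture per passage, and Hsd17b7 measured 2.54–9.20 CPM and Acss2 5.72–10.8 CPM over the 6 cultures.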

How the results depend on the processing

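Without 1 replicate the number of the 32 genes called was 3–15 for dome against suspension and 10–13 for passage 11 against passage 4. In single organoids, only organoids of Set 3 were left out in turn. The number was then 4–5 for Set 1 against Set 3, 2–4 for Set 2 against Set 3 and 4–7 for Set 3 against Set 4 (4 without organoid 3 of Set 3). It was 7–8 for Set 1 against Set 2, 11 for Set 1 against Set 4 and 4 for Set 2 against Set 4. In these 3 comparisons no organoid of either set was left out, so the counts do not show how the calls depend on their organoids. The falls to 3, 4 and 5 in domes came from leaving out a suspension culture, which leaves 2, and the cause was not tested. With no filter on low counts, 20 were called for passage, and 3 for Set 1 against Set 3. Thinning to the smallest library gave 5 for Set 1 against Set 2 and 3 for Set 1 against Set 3. With all 42 organoids, 5 were called for Set 1 against Set 2, 7 for Set 1 against Set 4, 1 for Set 2 against Set 3 and 4 for Set 3 against Set 4, and with adjustment within each comparison 1 for Set 2 against Set 3. The cause was not tested for any of these.

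With the replicate block 14 were called for dome against suspension and 16 for passage; it changed no other calls there than those of Nsdhl, Insig2, Lss and Elovl6. In single organoids the numbers pair nothing, since 4 of 35 organoids correlated best with their own number, and the replicate block gave 7, 4, 3, 2, 3 and 4 calls for Set 1 against Sets 2, 3 and 4, Set 2 against Sets 3 and 4, and Set 3 against Set 4. Of 3840 values of single genes under all alternatives, 3649 kept their side of the threshold, 142 lost the call and 49 gained it. In 0 did the sign change for a gene called in either fit. Changes of sign in uncalled genes were not counted. Acaca in domes, uncalled throughout, had log2 fold-changes from −0.99 to 0.19 under the alternatives. Depth limits Idi1, which rested on 3 to 27 counts per bulk culture.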
